A study of Mus musculus with 7 samples.

Results

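The 8 genes described here were grouped as genes of regional identity in the gut: the transcription factor genes Gata4, Gata6, Pdx1, Onecut2, Cdx1 and Cdx2, and the ileal bile acid genes Fabp6 and Slc10a2. They were chosen by symbol from the 37310 genes of the deposited tables, each symbol was found once, and all 8 passed the filter on low counts. Gene identifiers were ENSMUSG00000021944.8 for Gata4, ENSMUSG00000005836.8 for Gata6, ENSMUSG00000029644.6 for Pdx1, ENSMUSG00000045991.9 for Onecut2, ENSMUSG00000024619.8 for Cdx1, ENSMUSG00000029646.3 for Cdx2, ENSMUSG00000020405.4 for Fabp6 and ENSMUSG00000023073.1 for Slc10a2. The cells came from mice of 1 strain, BmicreERT2, Rosa26RFP, which carry an inducible Cre driven from Bmi1 and a red fluorescent reporter in the Rosa26 locus. All mice received their purified diet from weaning and were 3 months old. The groups were NWD2 (2 libraries), NWD1 (3 libraries) and AIN76A, the control diet (2 libraries). NWD1 is a Western-style diet, high in fat and short of calcium, vitamin D3 and donors of methyl groups, and NWD2 is the same diet with its calcium and vitamin D3 restored. Strongly red crypt cells with Epcam and without CD45 were sorted and sequenced in bulk. The labels give the tissue as intestine and name no segment, and whether the libraries are of separate animals is not given, so the p-values reflect only how far these libraries spread. Nor do they give the inducer of the Cre.

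A reporter switched on by Cre stays on in the descendants of a marked cell. The marked gene itself was low, with Bmi1 at 3.63 and 2.56 CPM in NWD2, 3.91, 2.12 and 5.25 CPM in NWD1, against 2.41 and 3.72 CPM in AIN76A. CPM are counts relative to library size, scaled between libraries by the trimmed mean of M values (TMM). Absorptive cell genes were abundant: 10 enterocyte markers summed to between 46182 and 91694 CPM in NWD2, 42977 and 60669 CPM in NWD1, against 42396 and 49078 CPM in AIN76A. Total counts were 71331627 and 77959407 in NWD2, between 14034315 and 65822352 in NWD1, and 58419160 and 39657707 in AIN76A. NWD2 replicate 2 stood apart on the first principal component, at 84.2 against -48.2 to 1.44 for the others. NWD1 replicate 3 was the shallowest library and has no column of TPM (transcript levels per gene length and library size) under its title, while 1 TPM column is headed NWD2 replicate 3, a title that no sample has. NWD1 replicate 3 also carries the i5 index of the NWD2 libraries, while the other NWD1 libraries and the AIN76A libraries carry another. The diet of that library is thus less certain. For some differences the value without it is given, and for others the range with any 1 library left out. NWD1 replicate 2 was the only library labelled female.

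The gut tube is patterned along its length by transcription factors that persist in the adult epithelium. Gata4 is made in duodenum and jejunum and fades towards the ileum, where in mice its loss from the jejunum lets ileal bile acid genes come on. Gata6 is present along the whole small intestine, Pdx1 marks the duodenum and the pancreas, and Onecut2 is a factor of the proximal small intestine. The caudal genes Cdx1 and Cdx2 hold intestinal identity against that of the stomach. Slc10a2 encodes the transporter that takes up bile acids at the ileal brush border, and Fabp6 the cytosolic protein that binds them inside the ileal enterocyte.

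The promoters of Fabp6 and Slc10a2 are shown because these genes share a function and a gut segment, and those of Pdx1 and Cdx2 because these are neighbouring genes on chromosome 5 in the RefSeq annotation and differ in their spread over libraries. Of the 8 genes, 4 had an entry in the RefSeq promoter table of build GRCm38.p6, which is not the build named for these data (mm9). Each sequence is the 250 bases before the annotated start, written in the direction of transcription. Capitals mark matches, searched on both strands, to 4 patterns. The caudal factors were represented by the letters CATAAA. For the zinc finger factors Gata4 and Gata6, the pattern searched was AGATAA. That of the cut homeobox family to which Onecut2 belongs was ATTGAT. The other pattern was an inverted repeat with a spacer of 1 base, the arrangement bound by the bile acid receptor Nr1h4. The last pattern was set after the Fabp6 sequence was seen.
Fabp6, chr11:43601563-43601812, minus strand: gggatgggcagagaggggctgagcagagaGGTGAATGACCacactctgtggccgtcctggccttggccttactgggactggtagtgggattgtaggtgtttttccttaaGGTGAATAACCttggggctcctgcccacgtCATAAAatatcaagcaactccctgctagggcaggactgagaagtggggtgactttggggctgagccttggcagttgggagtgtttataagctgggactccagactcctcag
Slc10a2, chr8:5105288-5105537, minus strand: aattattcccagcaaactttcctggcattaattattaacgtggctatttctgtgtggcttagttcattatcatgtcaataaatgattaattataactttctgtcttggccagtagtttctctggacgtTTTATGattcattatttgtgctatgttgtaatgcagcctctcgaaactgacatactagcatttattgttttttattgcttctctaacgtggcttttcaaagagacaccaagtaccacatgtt
Cdx2, chr5:147307250-147307499, minus strand: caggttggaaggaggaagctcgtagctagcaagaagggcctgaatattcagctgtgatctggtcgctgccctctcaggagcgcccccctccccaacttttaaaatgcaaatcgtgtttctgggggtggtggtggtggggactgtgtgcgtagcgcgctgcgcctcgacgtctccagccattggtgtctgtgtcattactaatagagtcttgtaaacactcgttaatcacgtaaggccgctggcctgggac
Pdx1, chr5:147269847-147270096, plus strand: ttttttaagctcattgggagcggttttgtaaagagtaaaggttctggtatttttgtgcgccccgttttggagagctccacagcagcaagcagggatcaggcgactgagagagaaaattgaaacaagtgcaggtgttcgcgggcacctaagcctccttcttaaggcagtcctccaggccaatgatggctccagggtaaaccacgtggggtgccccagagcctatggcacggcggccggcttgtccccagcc

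In these windows CATAAA stood 106 to 111 bases before the start of Fabp6 and, on the other strand, 117 to 122 bases before that of Slc10a2. It occurred in 10.8% of the 32851 promoter windows of the same length. The inverted repeat occurred in the Fabp6 window at 2 places, 211 to 221 and 131 to 141 bases before the start, and in 0.0974% of all windows. None of the patterns overlapped another in these windows, the Gata pattern (9.99% of all windows) and the Onecut pattern (6.72%) had no match in them, and the Pdx1 and Cdx2 windows held no match to any. A match is a description of letters, not evidence of a bound site.

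Compared per length, on the deposited TPM scale over 6 libraries, Fabp6 had the highest level, with a median of 166 TPM and a range of 80.7 to 844 TPM. The caudal factors followed, Cdx1 with a median of 79.7 TPM (17.0 to 133 TPM) and Cdx2 with 70.1 TPM (10.6 to 106 TPM). Gata4 had a median of 41.6 TPM (12.1 to 72.0 TPM), and Gata6 of 15.3 TPM (11.1 to 27.7 TPM). Pdx1 had a median of 7.02 TPM (6.31 to 10.03 TPM), Onecut2 of 6.66 TPM (4.72 to 11.4 TPM) and Slc10a2 of 3.83 TPM (1.32 to 6.50 TPM). Of the neighbours in this order, only Gata6 and Pdx1 had ranges that did not overlap. The carrier Fabp6 and the transporter Slc10a2, both ileal, thus stood at opposite ends of the order.

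Genes of both ends of the small intestine were present in every library, while colon, stomach and pancreas left little or nothing. Fabp1 and Lct, a fatty acid carrier and the milk sugar enzyme of the proximal gut, averaged 9859 and 1159 CPM over the 7 libraries. Slc51a, the subunit that exports bile acids from the ileal enterocyte, averaged 464 CPM, and the vitamin B12 uptake genes Amn and Cubn 86.1 and 66.6 CPM. The colonic genes Car1, Hoxb13 and Hoxd12 had 0 counts in every library, which allows at most 0.0412 to 0.199 CPM a library. The colonic list genes Muc3, Slc26a3 and Car4, which the small intestine also expresses, averaged 221, 182 and 181 CPM. The stomach genes Sox2, Gkn1 and Tff1 and the pancreatic genes Prss1, Cpa1, Amy2a5, Ins1, Ins2 and Ptf1a also had 0 counts throughout. The pancreatic list had 1 gene above 0, Cela1, at 7.77 to 17.2 CPM. The genes at 0 and Cela1 were picked after their values were seen, as were some of those plotted.

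**Figure D1:**
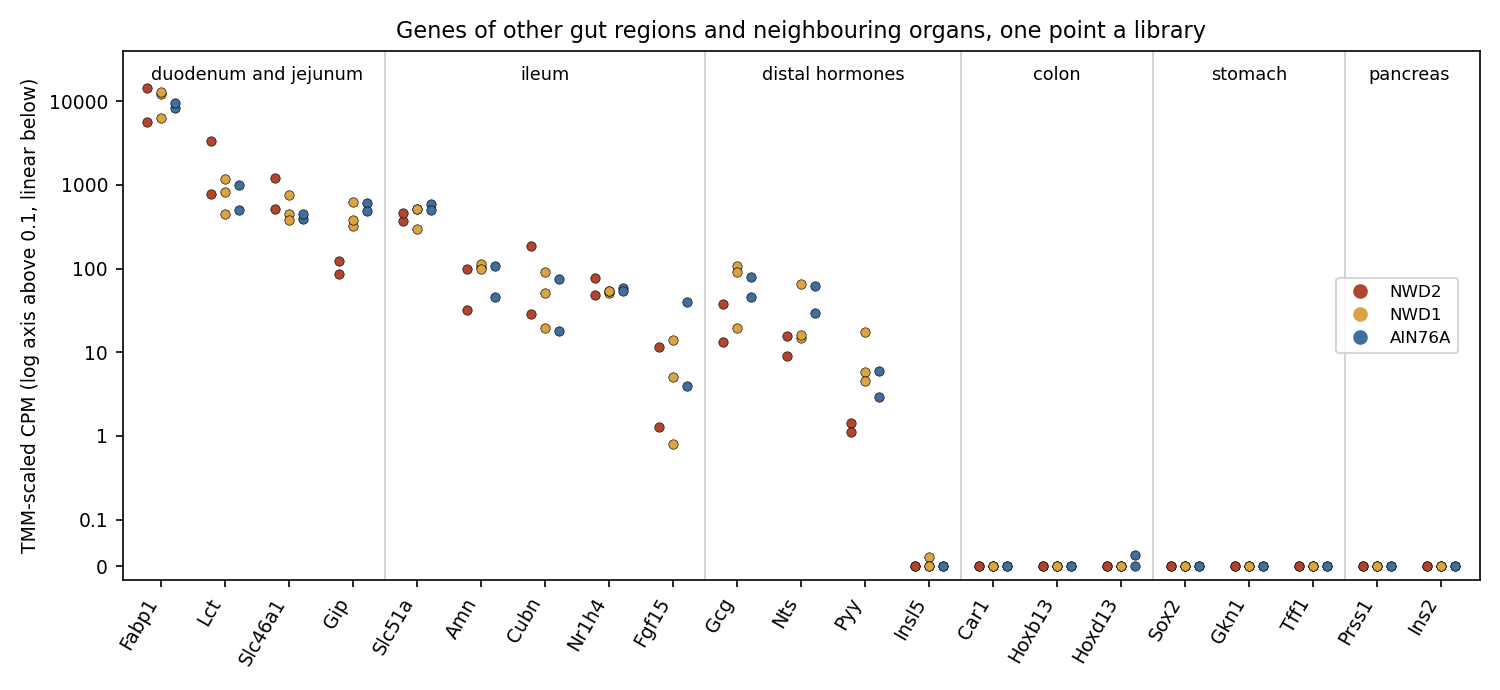
TMM-scaled CPM of genes of the gut regions and neighbouring organs, with 1 point a library, in NWD2, NWD1 and AIN76A; the axis is logarithmic above 0.1 CPM and linear below. Proximal and ileal genes were present in all 7 libraries, and Car1, Hoxb13, Sox2, Gkn1, Tff1, Prss1 and Ins2 lay at 0. Pgc and Cela1, the highest genes of the stomach and pancreas lists, are not plotted.

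Across the 3 comparisons, 0 of the 8 genes passed the edgeR quasi-likelihood test at an adjusted p under 0.05, and 0 of 14626 genes tested did (0% in each comparison). The DESeq2 Wald test called 1 gene for NWD1 against AIN76A, 52 for NWD2 against AIN76A and 174 for NWD2 against NWD1, none of them among the 8. At an unadjusted p under 0.05, Gata4 and Gata6 passed for NWD1 against AIN76A, where 500 genes (3.42%) did, and for NWD2 against NWD1, where 1154 (7.89%) did. In NWD2 against AIN76A, 560 genes (3.83%) passed and none of the 8. For NWD1 against AIN76A, none of the 4 anterior factors had an edgeR adjusted p under 0.05. Gata6 is counted among these, though it is present along the whole small intestine. Each of Gata4, Gata6, Pdx1 and Onecut2 had all 3 NWD1 libraries above both AIN76A libraries, as had 11.4% of all genes tested. Neither a caudal nor an ileal gene had. None of the 8 lay wholly lower in NWD1 than in AIN76A, as 8.61% of genes did. Markers of other cells differed in the same comparison: all 6 Paneth cell markers were below 0, with a median log2 fold change of -0.87 and 3 at an unadjusted p under 0.05, as were all 7 goblet cell markers, with a median of -0.83 and 3. The Paneth markers summed to 14608 to 19952 CPM in NWD1 against 27266 and 40080 CPM in AIN76A, and the goblet markers to 4749 to 7573 CPM in NWD1 against 8220 and 16942 CPM in AIN76A. None of these was called by edgeR, and their part in the levels of the anterior factors was not tested. In bulk samples, fewer cells of a type and less RNA per cell cannot be told apart.

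**Figure D2:**
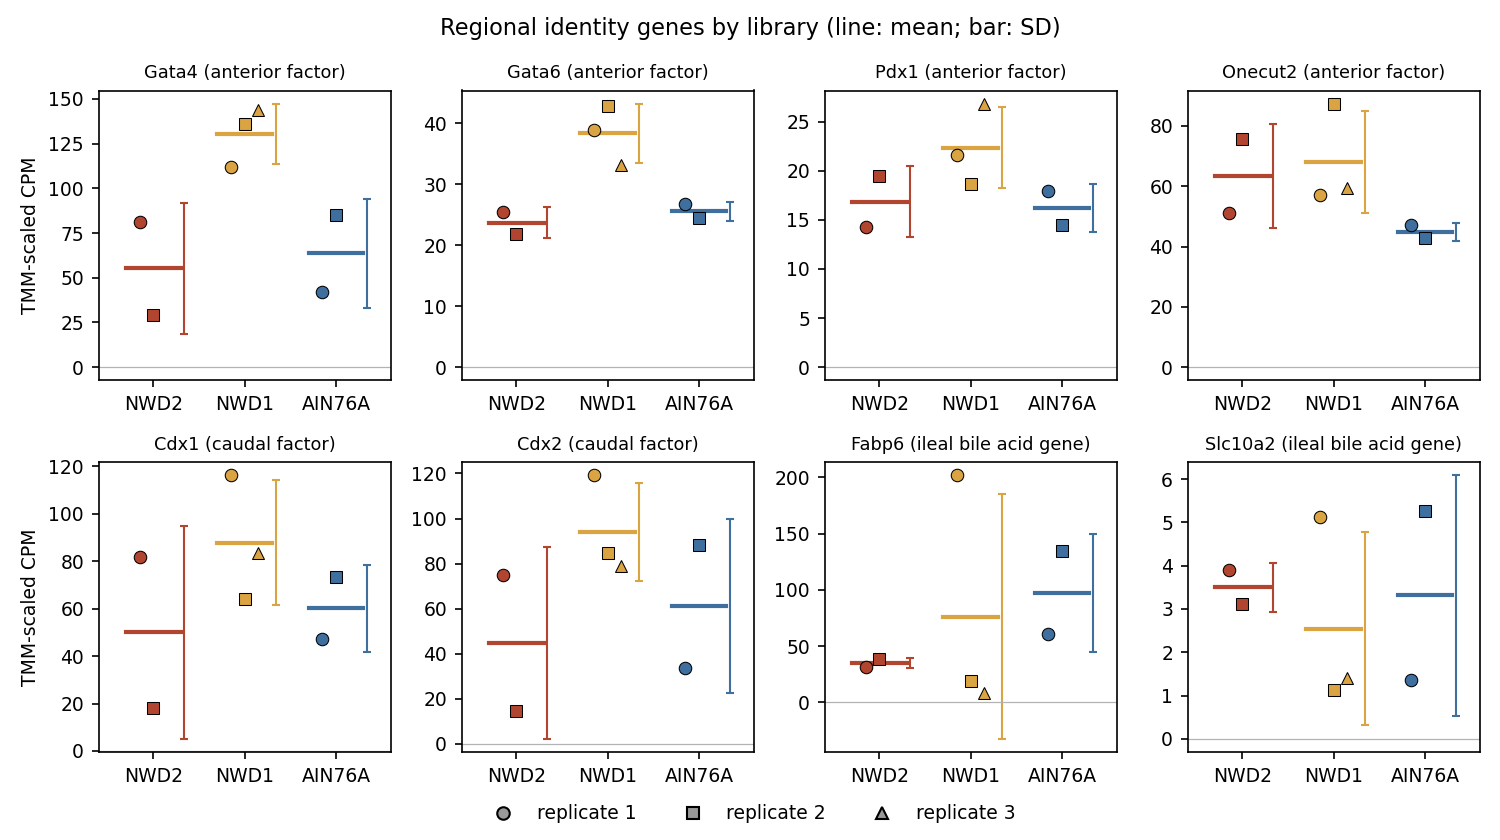
TMM-scaled CPM of the 8 genes in each library of NWD2, NWD1 and AIN76A, with the mean (line) and SD (bar). Gata4 lay between 112 and 144 CPM in NWD1, above the other 4 libraries (29.2 to 85.1 CPM), while Fabp6 ran from 8.57 to 202 CPM within NWD1.

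Gata4, the zinc finger factor of duodenum and jejunum, had 81.2 and 29.2 CPM in NWD2, 112, 136 and 144 CPM in NWD1, against 42.1 and 85.1 CPM in AIN76A. All 3 NWD1 libraries were above the other 4, a pattern shared by 1006 genes (6.88% of those tested). The 144 CPM is that of NWD1 replicate 3, whose diet is less certain, and the Gata4 pattern holds only with that library in NWD1. The means were 131 ± 16.8 CPM in NWD1 (SD, n = 3) against 63.6 ± 30.4 CPM in AIN76A (SD, n = 2), a log2 fold change of 1.04 (SE 0.46, 95% interval 0.01 to 2.07, edgeR adjusted p = 0.878). Without NWD1 replicate 3 it was 0.96, without AIN76A replicate 1, where Gata4 was low, 0.61, and without AIN76A replicate 2 1.63. NWD2, at 55.2 ± 36.8 CPM (SD, n = 2), gave -1.24 against NWD1 (SE 0.46, interval -2.28 to -0.21, edgeR adjusted p = 0.548). That difference passed in a fit without a filter on low counts (edgeR adjusted p = 0.0378, against 0.0378 to 0.999 over all alternatives), and was -0.68 without NWD2 replicate 2 and -2.20 without NWD2 replicate 1. NWD2 against AIN76A gave -0.20 (SE 0.48, edgeR adjusted p = 0.996), with overlapping libraries.

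Gata6, the paralog of Gata4 that acts along the whole small intestine, showed the same order of diets with a smaller spread. It had 25.4 and 21.9 CPM in NWD2, 38.9, 42.8 and 33.2 CPM in NWD1, against 26.7 and 24.4 CPM in AIN76A. Again the 3 NWD1 libraries lay above the other 4. The log2 fold change was 0.59 for NWD1 against AIN76A (SE 0.25, interval 0.02 to 1.15, edgeR adjusted p = 0.878) and -0.70 for NWD2 against NWD1 (SE 0.25, interval -1.26 to -0.13, edgeR adjusted p = 0.548). Leaving out any 1 library kept both signs, with values from 0.50 to 0.68 and from -0.85 to -0.58. For NWD2 against AIN76A it was -0.11 (SE 0.27, edgeR adjusted p = 0.996).

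Pdx1, the homeobox factor of duodenum and pancreas, had 14.3 and 19.4 CPM in NWD2, 21.6, 18.6 and 26.8 CPM in NWD1, against 17.9 and 14.5 CPM in AIN76A. NWD1 lay above AIN76A by the small gap between 18.6 and 17.9 CPM, and overlapped NWD2. Its log2 fold changes were 0.46 for NWD1 against AIN76A (SE 0.29, edgeR adjusted p = 0.878), 0.06 for NWD2 against AIN76A (SE 0.31, adjusted p = 0.996) and -0.40 for NWD2 against NWD1 (SE 0.29, adjusted p = 0.759). Pdx1 had the narrowest range of the 8, 1.88-fold from the lowest to the highest library. Pdx1 also acts in hormone cells of the proximal gut, and the duodenal hormone genes Gip, Cck and Sct had log2 fold changes of -2.40, -2.52 and -1.10 for NWD2 against AIN76A (edgeR adjusted p = 0.831, 0.831 and 0.969), while the 95% interval for Pdx1 was -0.65 to 0.77. Hormone genes of the distal gut were also lower there, Gcg at -1.29, Nts at -1.87 and Pyy at -1.82 (edgeR adjusted p = 0.996 each). So were all 10 enteroendocrine markers, with a median of -1.65 and 8 at an unadjusted p under 0.05, and all 6 tuft cell markers, with a median of -1.58 and 5, so the lower values were not those of duodenal hormones alone. None of these genes was called, and the difference between their changes and that of Pdx1 was not tested.

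Onecut2, a cut homeobox factor of the proximal small intestine, was the 1 gene of the 8 with both NWD2 libraries above both AIN76A libraries. It had 51.2 and 75.6 CPM in NWD2, 57.1, 87.3 and 59.3 CPM in NWD1, against 47.0 and 42.8 CPM in AIN76A. In that comparison 13.2% of genes tested had their first diet higher with no overlap. The log2 fold changes were 0.50 for NWD2 against AIN76A (SE 0.32, interval -0.23 to 1.22, edgeR adjusted p = 0.996) and 0.60 for NWD1 against AIN76A (SE 0.30, interval -0.07 to 1.27, edgeR adjusted p = 0.878). The highest library, at 87.3 CPM, was NWD1 replicate 2, and without it the NWD1 value was 0.38, while without NWD2 replicate 2 the NWD2 value was 0.20. NWD2 against NWD1 gave -0.10 (SE 0.29, edgeR adjusted p = 0.922).

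**Figure D3:**
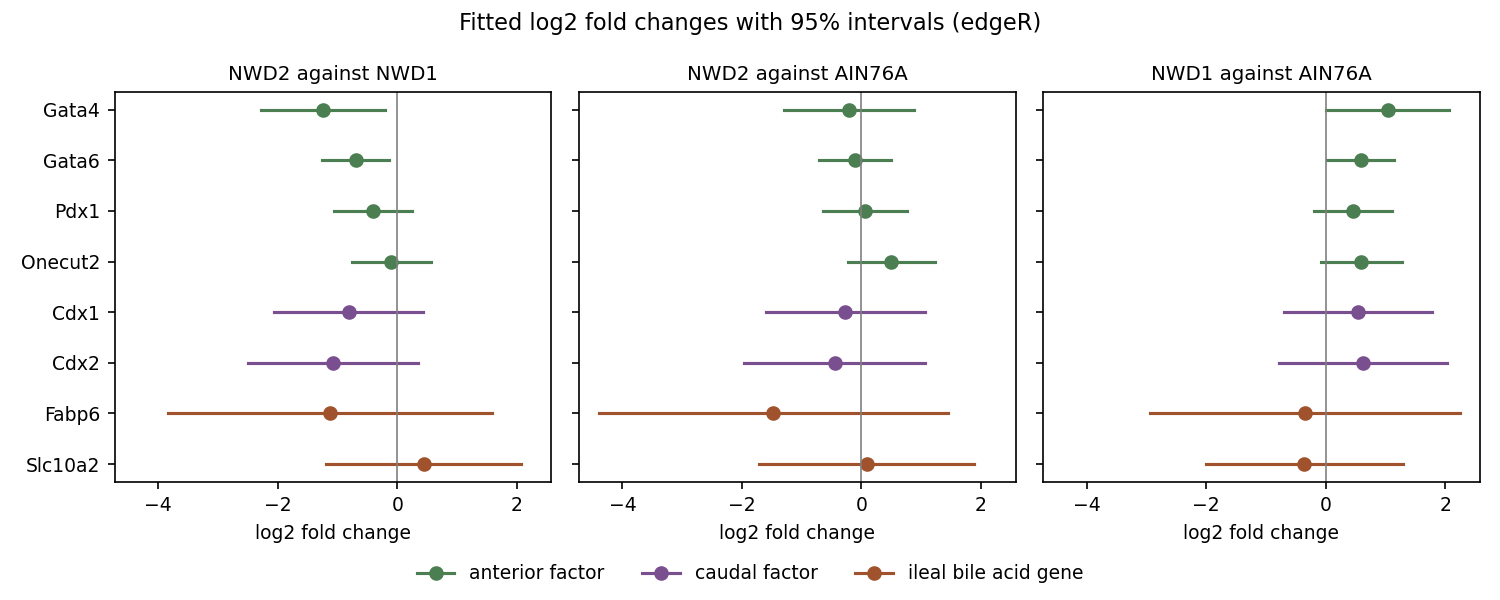
Fitted log2 fold changes of the 8 genes (points) with 95% intervals (lines) for NWD2 against NWD1, NWD2 against AIN76A and NWD1 against AIN76A. The intervals of Gata4 and Gata6 exclude 0 in both comparisons with NWD1, but for NWD1 against AIN76A only just, with lower ends of 0.01 and 0.02. That of Fabp6 is widest, from -4.40 to 1.45 for NWD2 against AIN76A. No adjusted p was under 0.05.

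Of the caudal factors, Cdx1 had 81.7 and 18.2 CPM in NWD2, 116, 63.9 and 83.3 CPM in NWD1, against 47.2 and 73.1 CPM in AIN76A. Cdx2, whose loss costs the adult epithelium its intestinal character, had 74.8 and 14.7 CPM in NWD2, 119, 84.5 and 79.0 CPM in NWD1, against 33.9 and 88.3 CPM in AIN76A. Both genes were lowest in NWD2 replicate 2, next lowest in AIN76A replicate 1 and highest in NWD1 replicate 1. For NWD1 against AIN76A the log2 fold changes were 0.54 for Cdx1 (SE 0.55, edgeR adjusted p = 0.887) and 0.63 for Cdx2 (SE 0.62, adjusted p = 0.886). Without AIN76A replicate 1 the values were 0.26 for Cdx1 and 0.09 for Cdx2, and without AIN76A replicate 2 they were 0.90 and 1.48. The Cdx1 value was 0.29 without NWD1 replicate 1.

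For NWD2 against NWD1, Cdx1 had a log2 fold change of -0.81 (SE 0.55, interval -2.06 to 0.44, edgeR adjusted p = 0.747) and Cdx2 of -1.07 (SE 0.63, interval -2.50 to 0.35, adjusted p = 0.722). The Cdx2 libraries of the diets did not overlap, by the gap between 74.8 and 79.0 CPM, and 14.5% of genes tested lay lower in NWD2 in this way. The 79.0 CPM is that of NWD1 replicate 3, whose diet is less certain. The size of both values rested on NWD2 replicate 2. Without it they were -0.10 and -0.33, and without NWD2 replicate 1 they were -2.30 and -2.71. These were the ends of their ranges with any 1 library left out. For NWD2 against AIN76A, Cdx1 gave -0.27 (SE 0.59) and Cdx2 -0.45 (SE 0.67), both with an edgeR adjusted p of 0.996, and without NWD2 replicate 2 they turned to 0.45 and 0.30.

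Of 6 genes listed as Cdx2 targets, some were highest in the library where Cdx2 was lowest and others were not. The adhesion gene Cdh17 had 1775 and 3418 CPM in NWD2, 1213, 1612 and 2081 CPM in NWD1, against 1512 and 1927 CPM in AIN76A. Its highest value was in NWD2 replicate 2. The sucrase gene Sis and the brush border gene Vil1 were highest in that library too, at 5677 and 3270 CPM. The mucin gene Muc2 and the guanylin gene Guca2a had 344 and 512 CPM there, and both were highest in AIN76A replicate 1, at 708 and 1534 CPM. Sis is also among the enterocyte markers, Vil1 among the epithelial markers and Muc2 among the goblet cell markers. The enterocyte markers had their highest sum in NWD2 replicate 2, at 91694 CPM, and the goblet cell markers in AIN76A replicate 1, at 16942 CPM. Whether the mix of cells had a part in the levels of these targets was not tested. None of the 6 targets was called in any comparison. For NWD2 against NWD1, 5 had values above 0 and 1 below, with a median log2 fold change of 0.40 against 0.05 over all genes, of which 53.5% were above 0. Set against AIN76A, NWD2 had 4 above 0 and 2 below (median 0.25), with Muc2 at -0.71 and Guca2a at -0.88, and for NWD1 against AIN76A 1 was above 0 and 5 below (median -0.37).

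Epcam and Klf5, picked after their values were seen, were low in the same libraries, while the epithelial markers as a list were not. Epcam, the surface protein used in the sort, had 838 and 225 CPM in NWD2, 1338, 1182 and 1103 CPM in NWD1, against 510 and 986 CPM in AIN76A. Klf5, a factor of the proliferating crypt, had 105 and 26.2 CPM in NWD2, 196, 159 and 164 CPM in NWD1, against 58.6 and 137 CPM in AIN76A. Gata4, Cdx1, Cdx2, Epcam and Klf5 thus had their lowest values in NWD2 replicate 2 and their next lowest in AIN76A replicate 1. The 6 epithelial markers, Epcam among them, summed to 8851 CPM in NWD2 replicate 2 and 10237 CPM in AIN76A replicate 1, the highest sums of the 7 libraries, whose others ran from 6571 to 8833 CPM. The 10 enterocyte markers summed to 91694 CPM in NWD2 replicate 2 but to 42396 CPM in AIN76A replicate 1, the highest and the lowest of the 7 libraries. Whether the mix of cells had a part in the levels of Gata4, Cdx1 and Cdx2 was not tested.

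Fabp6, the bile acid binding protein, varied more than the other 7 genes. It had 31.7 and 38.4 CPM in NWD2, 202, 18.7 and 8.57 CPM in NWD1, against 60.4 and 134 CPM in AIN76A. The lowest and the highest library were both from NWD1, 23.6-fold apart, so NWD1 spanned both other diets. Its biological coefficient of variation, the spread between libraries of a diet beyond counting error, was fitted as 0.7998, and 2.66% of genes tested had a higher one. Both NWD2 libraries lay below both AIN76A libraries, as did 13.2% of genes tested. That difference had a log2 fold change of -1.47 (SE 1.26, interval -4.40 to 1.45, edgeR adjusted p = 0.996), and of -0.78 without AIN76A replicate 2. It passed in a fit without a filter on low counts (edgeR adjusted p = 0.0183, against 0.0183 to 1 over all alternatives), while a term for the i5 index of the library turned it to 2.21. All NWD2 libraries carry another index than the AIN76A libraries, so index and diet cannot be told apart there.

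The remaining Fabp6 values were -0.35 for NWD1 against AIN76A (SE 1.12, edgeR adjusted p = 0.959) and -1.13 for NWD2 against NWD1 (SE 1.17, adjusted p = 0.804). Both depended on NWD1 replicate 1, where Fabp6 was at 202 CPM. Without that library they were -2.82 and 1.35.

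Slc10a2, the ileal bile acid transporter, was the lowest of the 8, with 3.90 and 3.11 CPM in NWD2, 5.11, 1.14 and 1.39 CPM in NWD1, against 1.35 and 5.27 CPM in AIN76A. These rest on 284 and 193 counts in NWD2, 247, 79 and 21 counts in NWD1, and 75 and 218 counts in AIN76A. The libraries overlapped in all 3 comparisons. The log2 fold changes were -0.36 for NWD1 against AIN76A (SE 0.73, edgeR adjusted p = 0.938), 0.09 for NWD2 against AIN76A (SE 0.80, adjusted p = 0.996) and 0.44 for NWD2 against NWD1 (SE 0.73, adjusted p = 0.866). Fabp6 and Slc10a2 were both high in NWD1 replicate 1 and AIN76A replicate 2 and both low in NWD1 replicates 2 and 3, and parted in AIN76A replicate 1, where Slc10a2 was low and Fabp6 was not.

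The other ileal genes did not all share that spread. Fgf15, the bile acid induced hormone of the ileum, had 1.29 and 11.6 CPM in NWD2, 14.01, 5.11 and 0.797 CPM in NWD1, against 3.91 and 39.8 CPM in AIN76A. It was highest in AIN76A replicate 2 and lowest in NWD1 replicate 3, and Fabp6 was high in the first and lowest in the second. The receptor gene Nr1h4 stayed between 47.7 and 77.9 CPM over the 7 libraries. Of the 8 ileal genes listed beside Fabp6 and Slc10a2, 7 were tested and 0 called in any comparison. For NWD2 against AIN76A 3 were above 0 and 4 below, with a median of -0.22 against -0.03 over all genes, of which 47.4% were above 0. For NWD1 against AIN76A the split was also 3 and 4, with a median of -0.08 against 0.01 over all genes, of which 50.6% were above 0.

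Of 12 products of the proximal gut, all were tested and 0 called. For NWD1 against AIN76A 9 were above 0 and 3 below, with a median log2 fold change of 0.27 against 0.01 over all genes, and the 4 anterior factors were all above 0 with a median of 0.59. Between NWD2 and AIN76A 8 products were above 0 and 4 below, with a median of 0.64 against -0.03 over all genes, and 2 of the 4 factors were above 0 with a median of -0.026. For NWD2 against NWD1 7 were above 0 and 5 below, with a median of 0.32 against 0.05 over all genes, and the 4 factors were all below 0 with a median of -0.55. The difference between products and factors was not tested. The 10 enterocyte markers, which share Fabp1 with the products, were all above 0 for NWD2 against AIN76A (median 0.51). For NWD2 against NWD1 8 were above 0 and 2 below (median 0.65), and for NWD1 against AIN76A 7 and 3 (median 0.14). The products below 0 for NWD2 against AIN76A included the hormone genes Gip, Cck and Sct, and all 10 enteroendocrine markers were below 0 there. Whether the products differed from these markers was not tested. Ada, the adenosine deaminase that marks the duodenum, had 295 and 543 CPM in NWD2, 56.4, 552 and 65.9 CPM in NWD1, against 45.8 and 87.1 CPM in AIN76A. It was thus high in NWD2 replicate 2, where Gata4 was lowest, and low in NWD1 replicate 3, where Gata4 was highest.

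Within each library, anterior and ileal genes were set against each other as the mean log2 CPM of Gata4, Gata6, Pdx1 and Onecut2 minus that of Fabp6 and Slc10a2. Of these, Gata6 does not mark the proximal end, since it is present along the whole small intestine. CPM are not per length, so these values are read between libraries only. The difference was 1.65 and 1.503 in NWD2, 0.58, 3.57 and 3.90 in NWD1, and 1.77 and 0.34 in AIN76A. NWD1 held the highest values, in replicates 2 and 3, but also a value below both NWD2 libraries. Against the caudal factors, the difference was -1.16 and 0.92 in NWD2, -1.29, -0.40 and -0.63 in NWD1, and -0.36 and -1.25 in AIN76A. The highest value was that of NWD2 replicate 2, and the diets overlapped. The ratio of Gata4 to Fabp6 in CPM ran from 0.553 in NWD1 replicate 1 to 16.8 in NWD1 replicate 3, so the libraries of 1 diet took both ends.

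**Figure D4:**
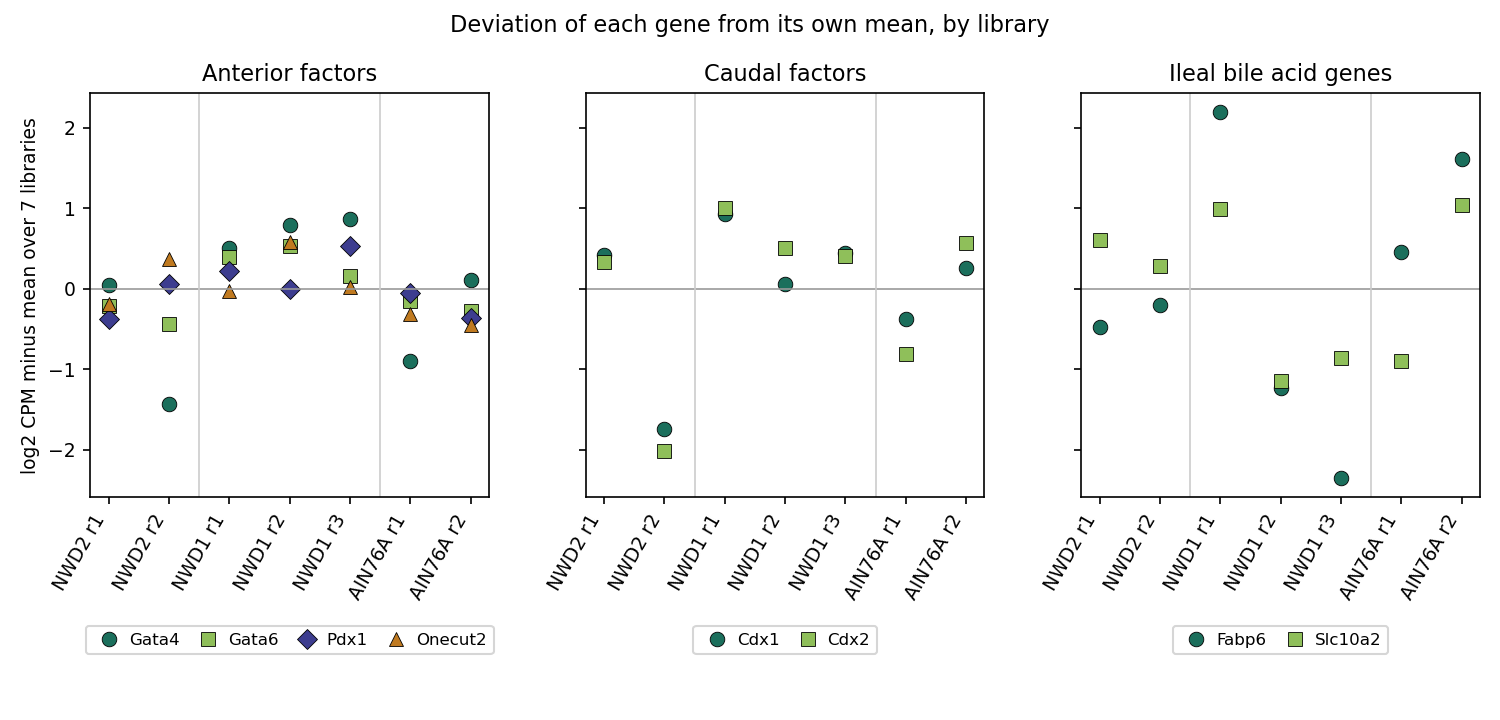
Deviation of log2 CPM from the gene's own mean over 7 libraries, by library (r, replicate) in NWD2, NWD1 and AIN76A, for anterior factors, caudal factors and ileal genes. Cdx1, Cdx2 and Gata4 are lowest in NWD2 replicate 2, and Fabp6 is highest in NWD1 replicate 1 and lowest in NWD1 replicate 3.

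Over the 7 libraries, 28 pairs of the 8 genes were correlated on the log2 CPM scale with exact permutation tests, and 0 passed after Benjamini-Hochberg adjustment. The strongest pair was Cdx1 with Cdx2 (Pearson r = 0.97, exact permutation p = 0.00417, adjusted p = 0.117; Spearman rho = 0.71, p = 0.0881, adjusted p = 0.652). Without the 2 libraries farthest from the Cdx1 median, r was 0.83. Gata4 and Cdx2 had r = 0.91 (exact permutation p = 0.0115, adjusted p = 0.122) and rho = 0.68 (p = 0.110, adjusted p = 0.652), but r was 0.08 without NWD2 replicate 2 and AIN76A replicate 1, so that relation rests on those libraries. Fabp6 and Slc10a2 had r = 0.73 (exact permutation p = 0.0770, adjusted p = 0.431) and rho = 0.64 (p = 0.139, adjusted p = 0.652), and r = 0.57 without 2 libraries. The neighbours Pdx1 and Cdx2 had r = 0.01 (exact permutation p = 0.985, adjusted p = 0.985) and rho = 0.14 (p = 0.783, adjusted p = 0.812), and r = -0.09 without 2 libraries.

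The genes most like each of the 8 were taken as the 3 with the highest Pearson r of log2 CPM over the 7 libraries among 9442 well-measured named genes, as a description without a test. All values share 7 libraries and their depth. Gata4 was followed most closely by Strn4, Ostm1 and Txndc11 (r = 0.998, 0.997 and 0.995), but 660 genes reached r = 0.9 with it, 612 did with Cdx2 and 458 with Cdx1. The nearest to Cdx2 were Trim59, Usp1 and Tmem9b, and to Cdx1 Med9, Elf2 and Ppif, with r of at least 0.99. The anterior genes other than Gata4 had fewer such partners. Gata6 was close to Dhx36 and Strn3 (73 genes at r = 0.9 or more) and Onecut2 to Clec2e, Myo9a and Papd5 (42 genes). Pdx1 reached that level with 1 gene, Slc37a2 (r = 0.91), followed by Meis2 (r = 0.89) and Dvl1 (r = 0.88). Fabp6 was nearest to Mettl7a1, Mylk3 and Tns4 (12 genes), and Slc10a2 to Tmigd1, Tgif1 and Plb1 (6 genes).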

How the data were processed

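Per the labels' protocols, a SMART-Seq v4 kit amplified the RNA of sorted cells and Nextera XT made paired-end libraries of it, without strand marking. Counts were deposited as whole numbers, 1 value per Ensembl gene and sample. The deposited TPM, each column summing to 1000000, use gene lengths that are not given in the sources used here. Per the submitters' processing notes, STAR 2.4.2a, HTSeq 0.6.1, edgeR and build mm9 were named, without roles. Of the TPM columns, 6 were used and 1, headed by a title that no sample has, was not. The 8 genes, the gene lists and the tests were chosen with earlier results of these data known, so they are not independent support for patterns already seen.

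Counts were tested with the quasi-likelihood F test of edgeR 4.0.16 in R 4.3.3, using filterByExpr on diet, TMM scaling, robust fitting and a single term, diet. All 7 samples entered 1 fit with 4 residual degrees of freedom, 14626 genes were tested, and p-values were adjusted by Benjamini-Hochberg over all of them with a threshold of 0.05. SE were derived from the test, as the absolute log2 fold change over the square root of its F statistic. The 95% intervals used a t quantile at the total degrees of freedom of the test, which add prior to residual ones. The log2 CPM used a prior count of 2. Exact permutation of 1 gene's values cannot go below p = 0.333 for 2 against 2 samples or 0.1 for 3 against 2, so none was used. The fit was tested on simulated counts. Samples were grouped by the diet in their titles. Named were the 8 genes, up to 4 genes of highest mean CPM a list, and the 3 genes most like each of the 8, apart from a few genes that are not reported here. Cck, Sct, Klf5, Fgf15, Muc2, Ada, Isx and the Hox genes were named after their values were seen. Of 143 list symbols, 139 matched the deposited symbols and 4 the Ensembl ID of the current symbol. The fit was repeated with scaling by library size or by DESeq2 size factors, with other filters, with DESeq2 1.42.0 and with limma 3.58.1 (voom, log2(TPM + 1) or log2(TPM + 0.1)). It was also repeated with a term for i5 index, sex or replicate number, on each pair of diets alone, at an adjusted p under 0.1 and without each library. Counting limits at 0 allow for 3 counts and cover counting error only. Correlations between the 8 genes and their permutation tests were computed with numpy 2.4.6, with ranks from scipy 1.17.1.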

Additional observations from a re-analysis of the deposited data

How the results depend on the processing

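None of the 8 genes passed under any alternative except without a filter on low counts, where 1 passed for NWD2 against AIN76A (Fabp6) and 1 for NWD2 against NWD1 (Gata4); the cause was not tested. Over all genes, against 0 in each comparison, that setting called 85 for NWD1 against AIN76A, 190 for NWD2 against AIN76A and 384 for NWD2 against NWD1, and DESeq2 called 1, 52 and 174 in the same order. The log2(TPM + 1) values gave 1 for NWD1 against AIN76A and 1 for NWD2 against NWD1, and a fit of only the diets compared gave 6 for NWD2 against AIN76A. An i5 index term gave 1 for NWD2 against AIN76A and 2 for NWD2 against NWD1. Leaving out 1 library gave 0 to 1 for NWD2 against NWD1, the 1 without NWD2 replicate 2. With replicate number as a block 1 gene was called for NWD2 against AIN76A and none of the 8 in any comparison. Same-numbered libraries deviated together with r across genes between -0.00022 and 0.26, and differently numbered ones between -0.26 and 0.17. Deviations were taken from the mean of each diet, so those of a diet with 2 libraries are mirror images. The values therefore cannot decide whether the numbers pair libraries, and the main fit used no pairing. Scaling by library size shifted the median of all genes by 0.11, -0.12 and -0.24 in the order above, and 5 rather than 3 of the 8 genes then had no overlap for NWD2 against NWD1, Pdx1 and Onecut2 being added. That count was computed after the data were seen. The share of all genes without overlap under that scaling was not computed, so the count cannot be set against it.

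Of 456 alternative log2 fold changes of the 8 genes, 425 kept their sign. Of the 31 others, 18 came from leaving out 1 library. For NWD1 against AIN76A, Fabp6 turned to 0.11 with a sex term and 0.18 with an i5 index term, and Slc10a2 to 0.013 with a sex term and to 0.016 and 0.035 on log2(TPM + 1) and log2(TPM + 0.1). For NWD2 against AIN76A, library size turned Pdx1 to -0.094 and Slc10a2 to -0.065, and the index term turned Gata6 to 0.19, Pdx1 to -0.36 and Fabp6 to 2.21. For NWD2 against NWD1, Onecut2 turned to 0.12 with the sex term and 0.10 with the index term, and Fabp6 to 2.03 with the index term. The index term rests on NWD1 replicate 3. Among NWD1 and AIN76A libraries with the same index, that is without NWD1 replicate 3, Gata4, Gata6, Pdx1 and Onecut2 gave 0.96, 0.68, 0.31 and 0.69.

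With 1 library left out, the values that turned ranged for NWD1 against AIN76A from -2.82 to 0.35 (Fabp6) and -1.40 to 0.93 (Slc10a2). For NWD2 against AIN76A they ranged from -1.16 to 0.40 (Gata4), -0.18 to 0.22 (Pdx1), -1.76 to 0.45 (Cdx1), -2.09 to 0.41 (Cdx2) and -0.59 to 1.38 (Slc10a2). For NWD2 against NWD1 they ranged from -1.65 to 1.35 (Fabp6) and -0.40 to 0.12 (Onecut2).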

Other observations

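Hox genes, the collinear set that encodes position along the body axis, were close to the detection limit in these cells. The 40 Hox identifiers in the table summed to between 1.43 and 3.22 CPM a library, 29 had a count in some library and 6 passed the filter on low counts, Hoxa10, Hoxa9, Hoxb7, Hoxa7, Hoxa3 and Hoxa4. Counts over all 7 libraries were 206 for paralog group 7, 219 for group 9 and 198 for group 10, while groups 11, 12 and 13, the hindgut end, had 4, 5 and 4 counts in all.

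Factors of the intestinal epithelium as a whole did not all share the low values of Gata4, Cdx1 and Cdx2 in NWD2 replicate 2. Hnf4a had 416 and 471 CPM in NWD2, 244, 262 and 362 CPM in NWD1, against 278 and 351 CPM in AIN76A. Hnf4g was highest in NWD2 replicate 2, at 1629 CPM, where Cdx2 was lowest. Of the 12 such factors, 0 were called in any comparison, with medians of 0.15 for NWD1 against AIN76A, 0.10 for NWD2 against AIN76A and 0.21 for NWD2 against NWD1. Isx, which depends on Cdx2, had 184 and 185 CPM in NWD2, 156, 100.3 and 159 CPM in NWD1, against 171 and 169 CPM in AIN76A.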
